A study of Homo sapiens with 6 samples.

Results

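Iron storage, uptake and export were followed through 10 genes: the ferritin subunits FTL and FTH1, transferrin (TF), the transferrin receptors TFRC and TFR2, the importer SLC11A2, the exporter SLC40A1, the hormone gene HAMP, and the RNA-binding regulators ACO1 and IREB2. These genes were selected by name from a table of 58735 genes, and all 10 passed the expression filter that left 13074 genes for testing. They were chosen from earlier results of the same comparison, so their levels and changes are given as a description, without p-values. RNA had been sequenced from Hep-G2, an established human liver cancer line, that carried either a control hairpin (sh-NC, 3 libraries) or a hairpin RNA directed at CLGN (sh-CLGN, 3 libraries). Both groups received a lentivirus and puromycin according to the study's methods. The labels call the control genotype WT and its treatment shcontrol, the other genotype CLGN knock down, and give the same batch, 0DAY, for all 6 libraries. Each group rests on 1 hairpin, and nothing in the labels says that libraries of a group came from separate cultures, so p-values measure only the spread between these libraries, which may be technical.

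A liver cell takes up iron bound to transferrin through transferrin receptors, carries it into the cytoplasm with the transporter DMT1, stores it in ferritin and releases it through ferroportin. Hepcidin, a hormone made by hepatocytes, removes ferroportin from the cell surface. Inside the cell, the iron regulatory proteins IRP1 and IRP2 bind a small hairpin in messenger RNAs, the iron responsive element (IRE). Bound in a 5′ UTR, as in the ferritin messages, they block translation, and bound in the 3′ UTR of TFRC they protect the message from decay. Much of this control acts on translation and on protein stability, which messenger RNA levels do not measure.

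The IREs are printed because they mark which of the 10 messages the iron regulatory proteins are known to bind. Each sequence is 30 bases long, written 5′ to 3′ on the gene's strand from GENCODE 29 transcripts, with the loop CAGTGN in capitals, its last base being A, C or T. The first 3 sites lie in the 5′ UTR, within exon 1 of the transcripts that carry them. That of FTL lies at chr19:48965335-48965364 (GRCh38, plus strand), 143 bases before the coding sequence. That of FTH1 lies at chr11:61967573-61967602 (minus strand), 147 bases before it. That of SLC40A1 lies at chr2:189580660-189580689 (minus strand) and is present in 1 of its 5 coding transcripts.
FTL: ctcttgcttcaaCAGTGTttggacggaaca
FTH1: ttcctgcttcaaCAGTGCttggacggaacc
SLC40A1: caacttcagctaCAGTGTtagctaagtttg
The FTL and FTH1 sites shared 26 of 30 bases, whereas FTL and SLC40A1 shared 14 of 30. TFRC held 4 sites in its 3′ UTR, all within exon 19 of 19 on the minus strand. In the order of the message they lie at chr3:196050978-196051007, chr3:196050574-196050603, chr3:196050509-196050538 and chr3:196050462-196050491. Between 19 and 25 of 30 bases were shared by any pair of them.
TFRC site 1: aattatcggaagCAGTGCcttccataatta
TFRC site 2: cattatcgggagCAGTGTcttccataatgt
TFRC site 3: ctgtatcggagaCAGTGAtctccatatgtt
TFRC site 4: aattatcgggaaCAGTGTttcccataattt
In SLC11A2 a window of 30 bases around the loop began 27 bases after the coding sequence, at chr12:50988268-50988297 (minus strand), in 5 of 18 coding transcripts.
SLC11A2: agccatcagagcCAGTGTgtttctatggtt

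The 7 sites of FTL, FTH1, SLC40A1 and TFRC all paired 5 of 5 bases in the upper stem and at least 4 of 5 in the lower stem, with a bulged C between them and G-U pairs allowed. The SLC11A2 site paired 4 and 1. The best windows of TF (5 and 3), IREB2 (4 and 3) and ACO1 (4 and 1) also missed the full pattern, and none was found in TFR2 or HAMP. The pattern was set with the known sites in view. On the same strand, the full pattern occurred in the 5′ UTR of 4 of 19666 genes (0.0203%), namely FTL, FTH1, SLC40A1 and ALAS2, and in the 3′ UTR of 9 genes (0.0458%), TFRC among them.

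CLGN, the chaperone gene that the hairpin targets, was examined first. It stood at 24.1, 21.0 and 26.1 FPKM (fragments divided by the length of the gene and the size of the library) in sh-NC replicates 1, 2 and 3, and at 9.48, 8.88 and 8.60 FPKM in the sh-CLGN libraries. The groups did not overlap, and the sh-CLGN mean was 37.8% of sh-NC (log2 change -1.31 ± 0.08 SE, adjusted p = 8.35e-06, limma). All log2 changes are differences of log2(FPKM + 1), sh-CLGN minus sh-NC, which understates the change of low genes. Depth was 14955816 to 16244639 reads per library, and the groups overlapped. The library sizes by which the authors divided were 0.933 to 0.953 times these totals for sh-NC but 1.07 to 1.08 times for sh-CLGN, so that scaling by the totals moved the median change of all genes by 0.16. The groups differed in other respects. Between 23578 and 23793 genes had a read in each sh-NC library, against 26814 to 27006 in each sh-CLGN library. Mitochondrial genes took 3.25% to 4.02% of the reads in sh-NC against 5.49% to 5.80% in sh-CLGN, and the log2 change fell with GC content across the genes tested (Spearman rho = -0.33, a description across genes). The 12 hepatocyte markers were all expressed, ALB at 1934 to 2076 FPKM in sh-NC against 1056 to 1108 FPKM in sh-CLGN, AFP at 2598 to 2790.48 and 3664 to 3943 FPKM. Of 9 fibroblast markers, 6 passed the filter and were called higher in sh-CLGN, where 26.7% of all genes tested were called higher. Among them COL1A1, COL3A1 and LUM passed only through the sh-CLGN libraries, so the filter had set their direction. The 9 markers summed to 55.8 to 59.8 FPKM in sh-NC against 131 to 136 FPKM in sh-CLGN, much of it VIM and COL1A2. DCN and THY1 were at or near 0 in all libraries. Macrophage markers summed to 2.55 to 3.12 FPKM in sh-NC against 2.86 to 2.93 FPKM in sh-CLGN, with CD163 at 0. Within that sum CD14 was lower in sh-CLGN (1.18 to 1.45 FPKM in sh-NC against 0.394 to 0.647). TIMD4 was higher (0.748 to 1.23 FPKM in sh-NC against 1.49 to 1.86). Of 8 erythroid markers, 7 including all the globins had no read in any library. The part of these differences in the iron genes was not tested.

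Of the 10 iron genes, 2 were called higher and 7 lower in sh-CLGN at an adjusted p of at most 0.05 over all genes tested. Among all genes tested, 26.7% were called higher and 39.0% lower, so most genes of this comparison were called. TF was the 1 member past both this threshold and an absolute log2 change of 1, where 3.09% of all genes were called higher and 3.19% lower. The libraries of the groups did not overlap for the same 9 genes, 2 higher and 7 lower, against 28.7% and 41.5% of all genes. Since the members were chosen from this comparison, nothing is read from these counts. The median log2 change was -0.49 over the 10 genes and -0.08 over all genes tested. In bulk RNA, fewer cells that express a gene and less of its RNA per cell cannot be told apart.

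**Figure D1:**
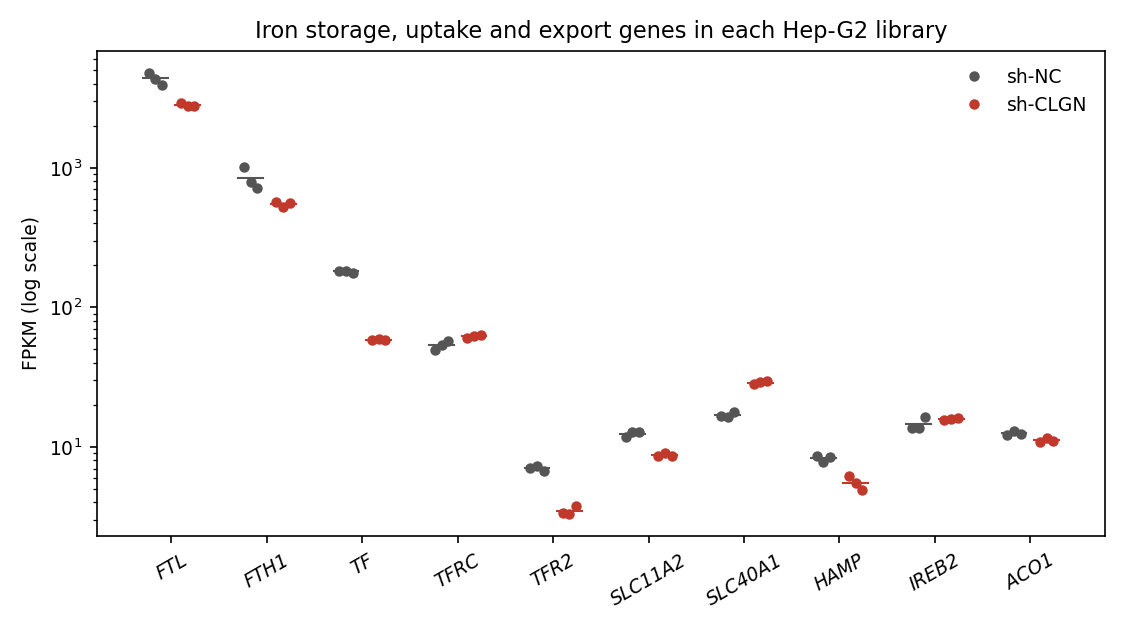
FPKM of the 10 genes on a log axis, with a point for each library (grey sh-NC, red sh-CLGN, n = 3 each) and a line at each group mean. The groups are apart for 9 genes, the widest gap is that of TF, and IREB2 overlaps.

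The storage genes gave the highest levels. FTL (ENSG00000087086, chr19:48965301-48966878, plus strand) encodes the ferritin light chain, which helps to form the iron core. It stood at 4791, 4357 and 3950.5 FPKM in sh-NC against 2916, 2790.05 and 2782 FPKM in sh-CLGN. All sh-CLGN libraries were below all sh-NC libraries, and the spread was narrower in sh-CLGN (mean 2829 ± 75.2 FPKM, SD, n = 3) than in sh-NC (4366 ± 420.4 FPKM). FTL was thus at 64.8% of the control (log2 change -0.62 ± 0.08 SE). FTH1 (ENSG00000167996, chr11:61959718-61967660, minus strand) encodes the heavy chain, whose ferroxidase site oxidizes iron for storage. Its levels were 1011, 793 and 717 FPKM in sh-NC against 568, 527 and 555 FPKM in sh-CLGN. Here too the groups were apart, with sh-NC replicate 1 the highest of all 6, and the sh-CLGN mean was 65.4% of sh-NC (log2 change -0.60 ± 0.12 SE).

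At the deposited scaling both chains were lower by much the same factor. After quantile normalization FTL was at -0.85 and FTH1 at -0.36, so that the log2 ratio differed by -0.49 between groups in place of -0.02. FTL exceeded FTH1 in FPKM by 4.74, 5.49 and 5.51 times in sh-NC against 5.13, 5.30 and 5.01 times in sh-CLGN, and the groups overlapped. Together the 2 genes took 0.521% ± 0.058 of all reads in sh-NC against 0.388% ± 0.012 in sh-CLGN (SD, n = 3). Ferritin has many processed pseudogenes, which can take reads from the parent genes. The 25 FTH1 pseudogenes together held 0.685% to 1.02% of the FTH1 reads in each library and the 16 FTL pseudogenes 0.0358% to 0.0691% of the FTL reads. The 3 pseudogenes with the highest mean FPKM were FTH1P2, FTH1P8 and FTH1P7. All of them were lower in sh-CLGN, with log2 changes of -0.64 ± 0.12, -0.55 ± 0.18 and -0.76 ± 0.08 SE and adjusted p of 0.00232, 0.0264 and 0.000128 (limma), on at most 97 reads per library. FTH1 also overlaps BEST1 on the opposite strand over 1267 exon bases, and BEST1 was counted at 90 to 205 reads against at least 17529 for FTH1.

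Transferrin showed the widest difference of the 10 genes. TF (ENSG00000091513, chr3:133745956-133796640, plus strand) encodes the plasma carrier of iron, a secreted product of hepatocytes. It was measured at 183, 183 and 177 FPKM in sh-NC against 58.5, 58.8 and 57.9 FPKM in sh-CLGN. Replicates differed by a few percent while the groups differed far more, with sh-CLGN at 32.2% of sh-NC (log2 change -1.62 ± 0.04 SE). TF took 0.447% ± 0.004 of all reads in sh-NC, more than FTL, and 0.165% ± 0.002 in sh-CLGN. Of the 12 hepatocyte markers, which include other secreted proteins, 4 were called higher and 7 lower, against 26.7% and 39.0% of all genes tested. The part of these markers in the level of TF was not tested.

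The receptors differed in opposite directions. TFRC (ENSG00000072274, chr3:196027183-196082189, minus strand) encodes the transferrin receptor that most cells use to take up iron. Its libraries read 49.1, 53.6 and 57.3 FPKM in sh-NC against 60.8, 62.2 and 63.2 FPKM in sh-CLGN. The groups did not overlap but lay close, at a mean of 116% of sh-NC (log2 change 0.22 ± 0.06 SE). TFR2 (ENSG00000106327, chr7:100620416-100642779, minus strand) encodes the liver receptor that senses the iron load of transferrin and acts on hepcidin. It stood at 7.02, 7.26 and 6.78 FPKM in sh-NC against 3.35, 3.30 and 3.803 FPKM in sh-CLGN. Every sh-CLGN library was below every sh-NC library, and the mean was 49.7% of sh-NC (log2 change -0.84 ± 0.07 SE). The ratio of TFRC to TFR2 was 7.61 ± 0.75 in sh-NC against 17.9 ± 1.14 in sh-CLGN (SD, n = 3), without overlap.

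The importer and the exporter of the cell also differed in opposite directions. SLC11A2 (ENSG00000110911, chr12:50979401-51028566, minus strand) encodes DMT1, which carries ferrous iron into the cytoplasm. It read 11.7, 12.7 and 12.8 FPKM in sh-NC against 8.55, 9.01 and 8.54 FPKM in sh-CLGN, so that the groups were apart (70.0% of sh-NC, log2 change -0.47 ± 0.06 SE). SLC40A1 (ENSG00000138449, chr2:189560579-189583758, minus strand) encodes ferroportin, the exporter of cellular iron. Its levels were 16.6, 16.3 and 17.8 FPKM in sh-NC against 28.3, 28.97 and 29.5 FPKM in sh-CLGN. Of the 10 genes it showed the widest difference upward, with sh-CLGN at 171% of sh-NC (log2 change 0.74 ± 0.05 SE). TFRC exceeded SLC40A1 by 3.16 ± 0.17 times in sh-NC against 2.15 ± 0.004 times in sh-CLGN (SD, n = 3), and the groups were apart.

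HAMP (ENSG00000105697, chr19:35280716-35285143, plus strand), the gene of hepcidin, was low in FPKM, which divides by its 3010 annotated exon bases. With its 255 coding bases in their place it stood at 97.9 in sh-NC, next below TFRC. It gave 8.62, 7.78 and 8.48 FPKM in sh-NC against 6.21, 5.49 and 4.90 FPKM in sh-CLGN, on 238 to 395 reads per library. All sh-CLGN libraries were below all sh-NC libraries (66.7% of sh-NC, log2 change -0.51 ± 0.08 SE). HAMP and SLC40A1, the hormone gene and the gene of its target, therefore differed in opposite directions.

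At the deposited scaling the genes of the IRE-binding proteins differed least, a rank that did not hold with read totals, where IREB2 was at 0.31 and SLC11A2 at -0.29. IREB2 (ENSG00000136381, chr15:78437431-78501456, plus strand) encodes IRP2, which is degraded when iron is plentiful. It read 13.6, 13.6 and 16.2 FPKM in sh-NC against 15.7, 15.8 and 16.2 FPKM in sh-CLGN. The groups overlapped through sh-NC replicate 3, and IREB2 was the 1 gene that was not called (log2 change 0.13 ± 0.07 SE), although it was called without that library (0.21). ACO1 (ENSG00000122729, chr9:32384603-32454769, plus strand) encodes IRP1, which serves as cytosolic aconitase when it holds an iron-sulphur cluster. Its levels were 12.2, 12.99 and 12.3 FPKM in sh-NC against 10.8, 11.6 and 11.1 FPKM in sh-CLGN, apart but close (89.2% of sh-NC, log2 change -0.15 ± 0.05 SE). The call was lost without any 1 of the sh-CLGN libraries or without sh-NC replicate 2. Direction itself depended on scaling, at 0.028 for ACO1 when levels were scaled by read totals and 0.0064 after quantile normalization, and at -0.0058 for IREB2 after GC correction. The ratio of IREB2 to ACO1 within a library was 1.16 ± 0.14 in sh-NC against 1.42 ± 0.06 in sh-CLGN (SD, n = 3), without overlap.

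**Figure D2:**
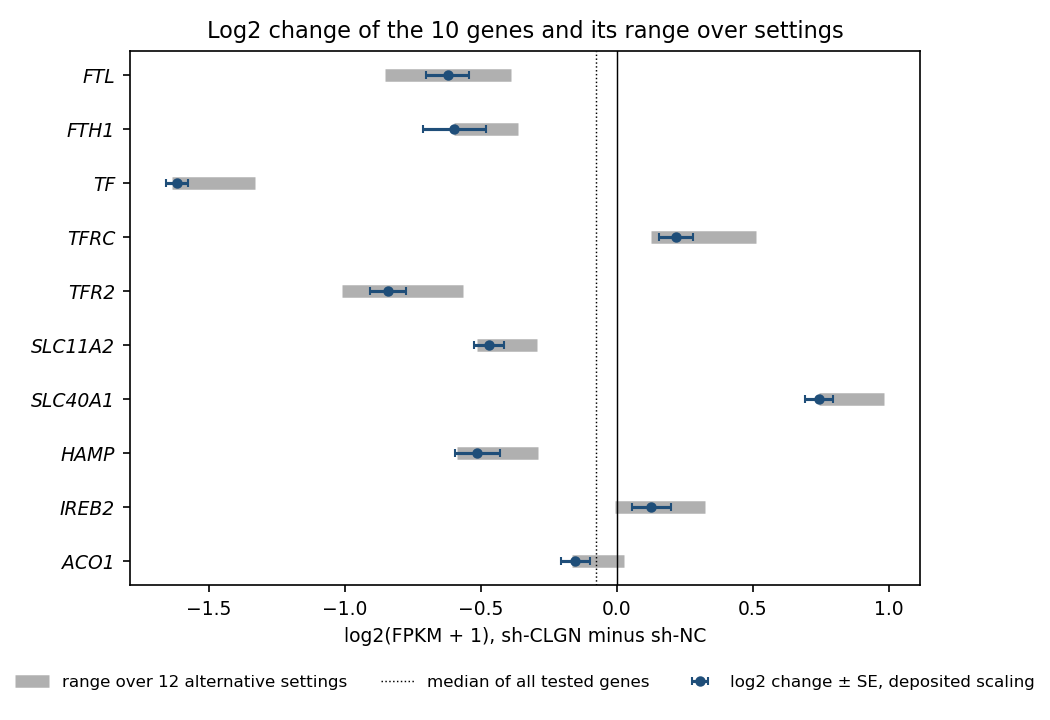
Log2 change of each gene, sh-CLGN minus sh-NC (points, with bars for the SE, n = 3 and 3), over the range of its log2 change under 12 other settings (grey bars), with a dotted line at the median of all tested genes, -0.08. TF, TFR2, FTL, FTH1, HAMP and SLC11A2 lie below 0 and TFRC and SLC40A1 above 0 over the whole range, whereas the ranges of IREB2 and ACO1 cross 0.

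For the other 8 genes the size of the log2 change, but not its direction, moved with the scaling. TFRC ranged from 0.12 after GC correction to 0.51 after quantile normalization, and SLC40A1 from 0.74 to 0.98. FTL ranged from -0.85 to -0.39, FTH1 from -0.60 to -0.36, SLC11A2 from -0.52 to -0.29 and TF from -1.63 to -1.33. TFR2 lay between -1.01 with voom on the recovered reads and -0.57 after GC correction, and HAMP between -0.59 with voom and -0.29 after GC correction. Transcript GC content ranged from 40.8% for IREB2 to 62.0% for TFR2. Ratios between genes of 1 library do not depend on the size by which a library is divided, but they do depend on GC correction and quantile normalization. The ratio of TFRC to FTH1, a receptor message carrying IREs in its 3′ UTR set against a ferritin message carrying 1 in its 5′ UTR, was 0.0486, 0.0676 and 0.0798 in sh-NC against 0.107, 0.118 and 0.114 in sh-CLGN. The groups were apart, and the ratio was 1.76 times as high in sh-CLGN (geometric mean). As a difference of the log2 changes of the genes, GC correction brought TFRC to FTH1 from 0.81 to 0.51, TFRC to TFR2 from 1.06 to 0.69, IREB2 to ACO1 from 0.28 to 0.079, and TFRC to SLC40A1 from -0.53 to -0.68. This correction of the ratios was added after the data were seen. Of the 3 genes with a site in the 5′ UTR, FTL and FTH1 were lower in sh-CLGN and SLC40A1 was higher.

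**Figure D3:**
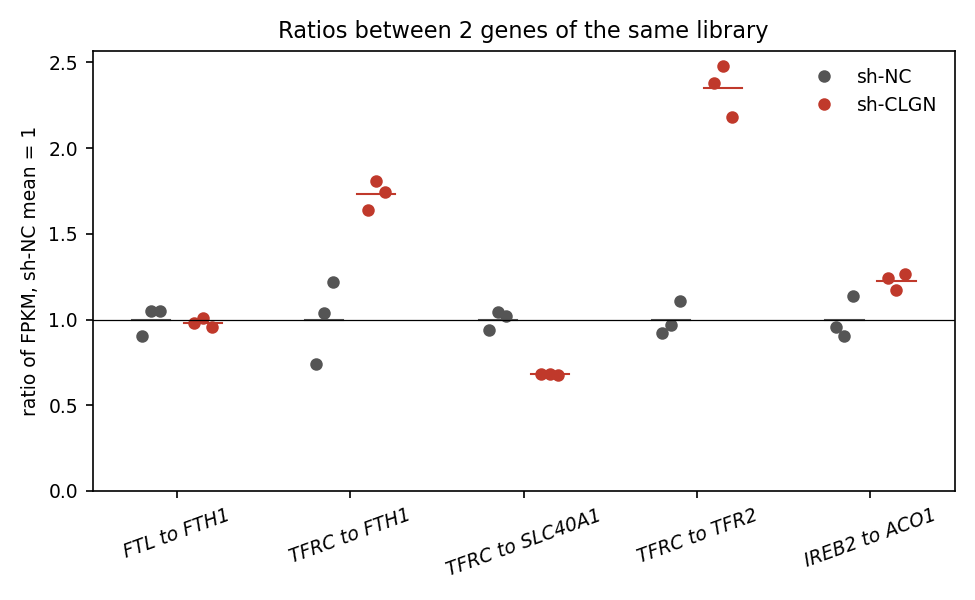
Ratio of the FPKM of 2 genes in the same library, divided by the sh-NC mean of that ratio, with a point for each library and a line at each group mean (n = 3 each). At the deposited scaling FTL to FTH1 overlaps between groups, and the other 4 ratios are apart, lower in sh-CLGN for TFRC to SLC40A1 and higher for TFRC to FTH1, TFRC to TFR2 and IREB2 to ACO1.

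The order of the levels, in FPKM, was FTL, FTH1, TF, TFRC, SLC40A1, IREB2, ACO1, SLC11A2, HAMP and TFR2 in sh-NC. ACO1 and SLC11A2 overlapped there, and all other neighbours were apart in their 3 libraries. In sh-CLGN the order was the same except that TFRC (60.8 to 63.2 FPKM) stood above TF (57.9 to 58.8 FPKM). FPKM divides by all annotated exon bases of a gene, which exceed the coding length 12.5 times for TF and 11.8 times for HAMP but 1.66 times for FTL. With the coding length in its place, FTL, FTH1 and TF came to 7261, 3091 and 2264 in sh-NC per coding kb and 4705, 2023 and 730 in sh-CLGN. On that scale HAMP followed TFRC in sh-NC (97.9 against 184), and in sh-CLGN it overlapped both of its neighbours, SLC40A1 and IREB2. The order of these genes thus depended on the length used, whereas the comparison between groups did not.

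To place the 10 genes in their pathway, 104 other iron genes were listed by role, and 89 of them passed the filter. Of these, 11 were higher and 60 lower in sh-CLGN at an adjusted p of at most 0.05 (limma, over all genes), or 12.4% and 67.4%, against 26.7% and 39.0% of all genes. Their median log2 change was -0.32. These lists too were drawn up with earlier results of the comparison known, so nothing about iron genes as a group is read from the counts. That holds for the count of each role list below, which stands beside the same shares of all genes and their median of -0.08. For single genes below, levels are means ± SD (n = 3), changes are log2 changes ± SE, and adjusted p comes from limma. With read totals as the scale the counts were 18 higher and 42 lower, quantile normalization 17 and 46, TPM 16 and 45, and GC correction 16 and 55. With read totals, 4956 of all genes were called higher and 3421 lower in place of 3496 and 5102.

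**Figure D4:**
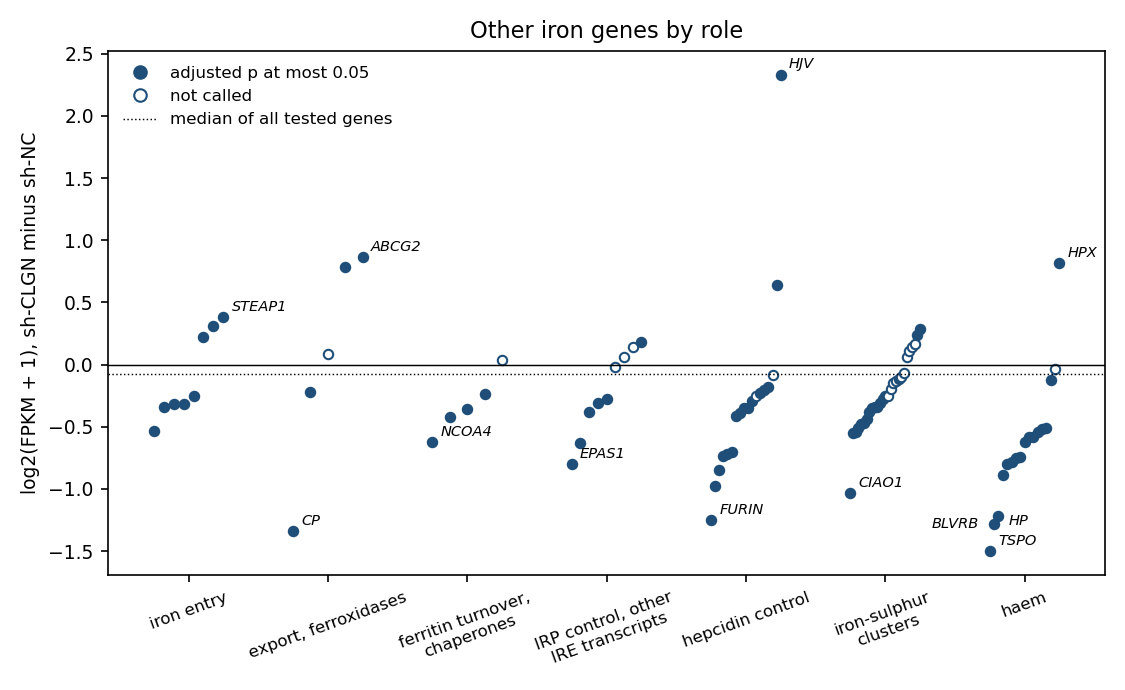
Log2 change of the 89 other iron genes tested, sh-CLGN minus sh-NC, a point for each gene, sorted within its role list (filled where the adjusted p is at most 0.05). HJV stands highest at 2.33 and TSPO, with 12 to 19 reads per sh-CLGN library, lowest at -1.50. The median of every list except the export list lies below the dotted median of all tested genes.

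Of 17 tested genes of haem synthesis, breakdown and scavenging (18 listed), 15 were lower, 1 higher and 1 not called, at a median log2 change of -0.62. Among all genes tested, 39.0% were called lower and 26.7% higher. All 8 enzymes from ALAS1, which makes the first precursor, to FECH, which inserts iron into the ring, were lower. These 8 had not been set apart from the list in advance, so nothing is read from their count. All 8 were also called lower under each of 18 other settings, which re-use the same 6 libraries and are not independent. FECH fell from 12.3 ± 0.54 to 6.85 ± 0.25 FPKM (-0.76 ± 0.06, adjusted p = 1.85e-05). BLVRB, a reductase of biliverdin and flavins, fell from 38.5 ± 3.802 to 15.2 ± 0.95 FPKM (-1.28 ± 0.08, adjusted p = 8.18e-06). TSPO, a porphyrin-binding protein of the outer mitochondrial membrane, was at 3.59 ± 0.72 FPKM in sh-NC and 0.613 ± 0.17 in sh-CLGN (-1.50 ± 0.13). It passed the filter only through the sh-NC libraries, which set its direction, so no p is given. TSPO had 64 to 91 reads per sh-NC library against 12 to 19 in sh-CLGN. Its change ranged from -2.52 to -1.20 over the settings. The plasma scavengers split. HP, haptoglobin, which binds free haemoglobin, fell from 8.70 ± 0.88 to 3.17 ± 0.42 FPKM (-1.22 ± 0.10, adjusted p = 2.33e-05). HPX, haemopexin, which binds free haem, rose from 26.8 ± 1.94 to 47.9 ± 1.24 FPKM (0.82 ± 0.06, adjusted p = 1.88e-05).

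Among genes that control hepcidin, 14 of 18 tested (21 listed) were lower, 2 higher and 2 not called, at a median log2 change of -0.35. HJV, hemojuvelin, a co-receptor for bone morphogenetic proteins that raises hepcidin, had the largest change of the 18, and it was higher. It stood at 1.33, 1.13 and 1.28 FPKM in sh-NC against 10.8, 10.6 and 9.68 FPKM in sh-CLGN (log2 change 2.33 ± 0.07 SE, adjusted p = 6.64e-07). HJV was near the filter in sh-NC, with 40 to 48 reads per library against 378 to 441 in sh-CLGN. Its change lay between 2.29 and 3.04 over the 18 other settings. FURIN, a protease that cleaves both hemojuvelin and the hepcidin precursor, fell from 362 ± 27.7 to 152 ± 8.40 FPKM (-1.25 ± 0.07, adjusted p = 5.7e-06). BMP2, a ligand of the pathway, fell from 59.9 ± 2.61 to 35.5 ± 0.29 FPKM (-0.74 ± 0.05, adjusted p = 1.01e-05). ID1, a common target of the same signal, fell from 613 ± 37.5 to 377 ± 13.4 FPKM (-0.70 ± 0.06, adjusted p = 3.72e-05). Another 3 were named after their values were seen. NEO1, which binds hemojuvelin, and TMPRSS6, the protease that removes it from the surface, were lower at -0.98 ± 0.08 (adjusted p = 3.82e-05) and -0.85 ± 0.12 (adjusted p = 0.00044). IL6R, the interleukin-6 receptor, was the other gene called higher, at 0.64 ± 0.06 (adjusted p = 5.08e-05).

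On the export side, 2 of 5 genes tested (6 listed) were higher, 2 lower and 1 not called, at a median log2 change of 0.08. CP, ceruloplasmin, the plasma ferroxidase that oxidizes iron leaving through ferroportin, read 25.4, 26.7 and 27.9 FPKM in sh-NC against 9.48, 9.71 and 10.6 FPKM in sh-CLGN. It was the 1 gene of 5 tested past both thresholds (log2 change -1.34 ± 0.06 SE, adjusted p = 2.52e-06), opposite in direction to SLC40A1. The membrane ferroxidase HEPH was not called (a mean of 7.30 against 7.78 FPKM, adjusted p = 0.33). ABCG2, a transporter that can export haem and porphyrins, rose from 4.03 ± 0.19 to 8.15 ± 0.55 FPKM (0.86 ± 0.07, adjusted p = 2.17e-05). FLVCR2 rose by 0.79 ± 0.10 on the log2 scale (adjusted p = 0.000291). FLVCR1, known as a haem exporter, fell by 0.22 ± 0.05 (adjusted p = 0.00673), a call lost under TPM, read totals and quantile normalization.

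For iron entry, 3 of 8 tested genes (12 listed) were higher and 5 lower, at a median log2 change of -0.29, and none of the 8 passed both thresholds. STEAP1, of the family of metal reductases, rose from 18.3 ± 0.80 to 24.2 ± 1.31 FPKM (0.38 ± 0.06, adjusted p = 0.000645), and STEAP2 rose by 0.31 ± 0.08 (adjusted p = 0.0101), a call lost after GC correction. LCN2, a siderophore-binding protein, fell from 2.92 ± 0.26 to 1.71 ± 0.04 FPKM (-0.53 ± 0.08, adjusted p = 0.000514). SLC39A14, which takes up iron not bound to transferrin, was abundant at 173 ± 12.1 and 138 ± 2.70 FPKM (-0.32 ± 0.06, adjusted p = 0.00193), but lost its call under read totals and stood at 0.0042 after quantile normalization.

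Of 5 tested genes of ferritin turnover and iron chaperones, 4 were lower and 1 was not called, at a median log2 change of -0.35, out of 9 listed. NCOA4, the receptor that carries ferritin to its degradation, fell from 83.8 ± 4.56 to 53.9 ± 1.40 FPKM (-0.63 ± 0.05, adjusted p = 3.47e-05). GLRX3, a carrier of iron-sulphur clusters in the cytosol, fell by 0.42 ± 0.06 (adjusted p = 0.000404), and the iron chaperone PCBP1 by 0.35 ± 0.05 (adjusted p = 0.000588), a call lost after quantile normalization. PCBP2, a related chaperone, was at -0.24 ± 0.05 (adjusted p = 0.00549), but lost its call under TPM and read totals and stood at 0.035, not called, after quantile normalization.

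In the list of IRP control and other transcripts known to carry an IRE, 1 of 9 tested genes was higher, 5 were lower and 3 were not called, at a median log2 change of -0.28, out of 10 listed. EPAS1, the hypoxia-inducible factor HIF-2 alpha, read 75.4, 81.7 and 78.8 FPKM in sh-NC against 44.1, 43.6 and 46.2 FPKM in sh-CLGN (-0.80 ± 0.05, adjusted p = 8.51e-06). CIAO3, a factor of cytosolic iron-sulphur assembly, fell by 0.63 ± 0.09 (adjusted p = 0.000438). FBXL5, the iron sensor that marks IRP2 for degradation, fell by 0.31 ± 0.06 (adjusted p = 0.00324). The FBXL5 call was lost under TPM, read totals and quantile normalization.

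Mitochondrial iron transport and iron-sulphur assembly gave 15 lower, 2 higher and 10 not called among 27 tested of 28 listed, at a median log2 change of -0.26. CIAO1, of the cytosolic assembly complex, fell from 44.0 ± 0.79 to 21.0 ± 0.25 FPKM (-1.04 ± 0.04, adjusted p = 2.06e-06) and was the 1 gene of the list past both thresholds. FDX1, BOLA3 and GLRX5, also of this list, were at -0.55 ± 0.06, -0.51 ± 0.06 and -0.44 ± 0.05 (adjusted p = 8.07e-05, 0.000183 and 0.000156).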

How the data were processed

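Total RNA of 6 Hep-G2 libraries had been prepared with a NEBNext Ultra kit, and the authors deposited FPKM values with gene lengths. The submitters' processing notes name HISAT2 2.0.5, featureCounts and GRCh38. Strand and multi-mapped reads are not given in the sources used here, so counts of overlapping genes and pseudogenes are uncertain. All 58735 gene positions equalled GENCODE 29. FPKM times length gave whole reads for 100% of values (tolerance 0.01 of a read). Groups came from the labels.

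The test was limma 3.58.1 (R 4.3.3), eBayes with trend on log2(FPKM + 1), 6 libraries, no covariate, genes of at least 1 FPKM in at least 3 libraries, two-sided, with Benjamini-Hochberg adjustment over 13074 genes. On simulated data with 200 of 13074 genes changed, the test recovered 130 at a log2 change of 0.5 and 196 at 1.5, with 4 and 6 false calls. A gene not called may therefore still differ. Far more genes were called in the data than were changed in the simulation. The members and lists were chosen with earlier results of these data known. Named genes of a list were those past both thresholds and the 4 with the smallest adjusted p, and genes at or under 3 reads in every library could be named as such. Some genes that meet this rule are not reported here. The alternatives added 0.1 in place of 1, dropped the filter or set it at a mean of 0.1 FPKM, and used TPM, read-total, median-ratio and quantile scaling, protein-coding genes only, no trend, voom, a GC correction, the replicate block, and leaving out each library. A floor of 3 reads, for counting error only, was used. Tables and figures used Python 3.11.15, pandas 2.3.3, numpy 2.4.6 and matplotlib 3.10.9.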

Additional observations from a re-analysis of the deposited data

Results flagged for a closer look

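Of the 104 other iron genes listed, 89 passed the expression filter. The rest were searched for genes with over 3 reads in every sh-CLGN library and more in each than in any sh-NC library. Such a search can return only genes higher in sh-CLGN, so it set the direction of those named here. CYBRD1, a ferric reductase, had 46 reads summed over the sh-CLGN libraries (9, 21 and 16) and 7 over the sh-NC libraries (1, 4 and 2). BMP6, a ligand that raises hepcidin, had 45 (15, 18 and 12) and 17 (6, 10 and 1). For comparison, 9830 genes were below the filter with over 3 reads in at least 1 library. Of these, 2458 were higher in sh-CLGN without overlap of the groups, and 529 were lower without overlap. The difference was not tested.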

How the results depend on the processing

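The counts of members called ranged from 2 to 3 higher and 6 to 7 lower over the 12 settings and the 6 omissions of a library. The members past both thresholds became 2 with voom, where TFR2 joined TF, and the other iron genes past both became 14 in place of 7. The other iron genes called higher numbered 17 after quantile normalization and 18 with read totals, in place of 11, and 8 to 11 without 1 library, with 54 to 59 lower. ACO1 turned to 0.0064 after quantile normalization and 0.028 with read totals, and lost its call under TPM and GC correction. IREB2 was called under TPM (0.26), read totals (0.31) and quantile normalization (0.33). FTL lost its call with no filter at the same log2 change, -0.62. The log2 ratio of FTL to FTH1 differed by -0.02 between groups, from -0.10 to 0.01 without 1 library, and by -0.49 after quantile normalization, and that of TFRC to TFR2 by 1.23 and 1.51. GC correction, added for the ratios after the data were seen, gave differences of log2 changes of 0.51 for TFRC to FTH1, 0.69 for TFRC to TFR2, -0.68 for TFRC to SLC40A1 and 0.079 for IREB2 to ACO1. The cause was not tested. CLGN stayed called, at -1.54 to -1.12. Libraries with the same number did not deviate together (correlations of deviations of -0.15 to -0.02). With the replicate block, 2 members were called higher and 6 lower, ACO1 losing its call, and 11 and 56 of the other iron genes. The 3 libraries per group limit the precision. The fold of genes near 1 FPKM is understated on this scale.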

Other observations

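Several listed genes were at or under 3 reads in every library, namely CD163 and PCBP3 with no read and FTMT, mitochondrial ferritin, with at most 1. Erythroid ALAS2, whose message carries a 5′ IRE, had 0 reads in each sh-NC library and 9, 2 and 1 in the sh-CLGN libraries, while ALAS1, the form used by the liver, was at 40.7 FPKM or more in both group means. ERFE, an erythroid hormone that lowers hepcidin, had 15 to 30 reads per library, with overlapping groups.

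BOLA2B, a partner of GLRX3, had 303 reads in sh-NC replicate 3 and 5 to 12 in each of the other 5 libraries, and its near-identical copy BOLA2 had 1 to 4 reads in every library. TF shares 112 exon bases with its neighbour SRPRB on the same strand, which had 1514 to 1900 reads against at least 24486 for TF. Of the heptamers that match positions 2 to 8 and 3 to 9 of the antisense strand of the sh-CLGN target, TACCACA occurred in the 3′ UTR of TFRC and SLC40A1 among the 10 genes, against 10.5% of the tested genes with a 3′ UTR of at least 50 bases. ATACCAC occurred in 0 of 10, against 7.78%. The part of such sites in the result was not tested.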
